A study of Danio rerio with 18 samples.

Results

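The regions described here were open in hepatic stellate cells (HSCs) with and without injury, and in endothelial cells (ECs) of injured livers, but had no peak in control ECs or in hepatocytes (HEPs). They were chosen by presence of a peak in 6 lists from the assay for transposase-accessible chromatin (ATAC-seq), after peaks of all lists that shared at least 1 bp were joined into regions. A member held a peak of EC TAA, HSC TAA and HSC control, and no peak of EC control, HEP TAA or HEP control. This left 2765 members of 92012 regions, or 3.01%. Since presence of the peaks selected the members, their number and pattern are a description, and the scores of the same peaks are given without a test.

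The cells came from livers of adult female zebrafish of the AB background, injected into the peritoneum 6 times over 2 weeks. They received thioacetamide (TAA, 500 mg/kg), a hepatotoxicant, or a control injection, which the paper describes both as sterile water and as saline. Each cell type was sorted from a line of its own. ECs came from Tg(kdrl:ras-mCherry) fish, HSCs from Tg(hand2:EGFP) fish and HEPs from Tg(fabp10a:dsRed) fish, so both the TAA and the control fish of a cell type carried the same transgene, and cell type and line cannot be told apart. The kdrl promoter marks vessels in general, so the EC sort was not limited to the sinusoids. Of each cell type, 3 TAA libraries and 3 control libraries were made from 60000 sorted cells each. The 3 libraries of a group were combined into a single list, so no spread between libraries can be given and no difference below was tested. Confidence intervals are Wilson intervals at 95% and cover counting error over regions only.

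HSCs are the pericyte-like, vitamin A-storing cells that lie between hepatocytes and the sinusoidal endothelium. In injury they turn into myofibroblasts that deposit much of the scar matrix, and the endothelium beside them loses its specialised, fenestrated form. ATAC-seq uses a transposase that cuts accessible DNA, so a peak marks an open stretch such as a promoter or an enhancer, without showing which gene it acts on.

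The lists held 54209 peaks for EC TAA and 51257 for EC control, 61245 for HSC TAA and 55293 for HSC control, and 44649 for HEP TAA and 41563 for HEP control. Each peak carries a score, 10 times the −log10 of its q-value, up to a common maximum. Because scores grow with depth, which is unknown here, peaks were also given a rank percentile within their own list, with 100 the strongest. A peak is said to rank above that of another list by this percentile. The lists differ in length, which also bears on such comparisons, and small differences in percentile between lists carry little weight. Among the genes that could be placed, the peaks of the hepatocyte genes differed between the EC lists. Within 3 kb of their starts, the best peaks of fga, fgb and fgg, which encode the fibrinogen chains, stood at percentiles 90.5, 79.2 and 94.0 in EC TAA, against 20.7, 32.5 and 9.12 in EC control. The best peaks of ambp, a plasma protein gene, stood at 89.6 in EC TAA and 8.57 in EC control, and cyp3a65, a cytochrome P450 gene, had its best peak at 81.6 in EC TAA and no peak in EC control. Over the same 5 genes the best peaks ranged over percentiles 82.6 to 95.4 in HSC TAA and 71.7 to 94.0 in HSC control, against 75.8 to 92.4 in HEP TAA and 79.4 to 94.4 in HEP control. Hepatocyte-gene peaks thus ranked high in the EC TAA list and in both HSC lists, and low or not at all in the EC control list. Genes could be placed only through a promoter peak in the HSC or HEP annotation of the study. Peaks in the HSC and HEP lists were therefore favoured directly by how the genes were found. EC TAA peaks could be favoured through them. Of 10605 regions in both HSC and both HEP lists without an EC control peak, 10377 (97.9%) had an EC TAA peak. The contrast between the EC lists at these genes is thus not free of this choice. Other placed genes also differed between the EC lists, in both directions. The matrix gene col6a1 had its best peak at 47.5 in EC TAA and none in EC control, and col6a2 stood at 76.2 against 41.2. The matrix gene loxl2a stood at 64.5 against 89.2, and the immune gene il1b had none in EC TAA and 80.7 in EC control. anxa4 (75.5 and 70.5) and id1 (88.2 and 88.7) were close. The part of the hepatocyte-gene peaks in the results below was not tested. hand2, kdrl and fabp10a, the genes behind the transgenes, could not be placed by symbol, nor could the HSC and EC markers. The labels of HSCs and ECs were therefore not checked against their markers.

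Regions with an EC TAA peak and no EC control peak numbered 27390, or 29.8% of all regions. Lack of an EC control peak means absence from that list, and the lists differed in strength. The median score was 439 in EC TAA and 299 in EC control. How far list strength or depth bears on this count was not tested. Both HSC lists held 16920 of the 27390 regions (61.8%). Most of these shared regions were also open in HEPs, with 10377 (61.3%) in both HEP lists, 2256 (13.3%) in HEP TAA alone and 1522 (8.995%) in HEP control alone. The members, the shared regions with no HEP peak, made up the other 2765 (16.3%, interval 15.8 to 16.9%). Most of these shared regions were thus regions that HEPs had as well. The members are the smaller set that HEPs lacked. HEP peaks were frequent in regions of both HSC lists in general. Without an EC control peak, 10605 such regions were in both HEP lists and 4196 in neither. With an EC control peak, the numbers were 22307 and 1421. Sharing with HEPs was therefore not particular to the regions counted here. Regions in both HSC lists were themselves common among all 92012 regions. Beside the counts above, 2665 without and 2000 with an EC control peak had HEP TAA as their only HEP list. With HEP control as the only HEP list, the numbers were 1731 and 973. The 61.8% is to be read against this wide presence, whose share of all regions was not computed.

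Among regions without a HEP peak, an EC TAA peak was most frequent where both HSC lists had a peak. With no EC control peak, 2765 of 4196 regions in both HSC lists had an EC TAA peak (65.9%, interval 64.5 to 67.3%). The same share was 3918 of 10264 (38.2%, 37.2 to 39.1%) for regions in HSC TAA alone and 534 of 3018 (17.7%, 16.4 to 19.1%) for regions in HSC control alone. The order thus followed the HSC lists, both above TAA alone above control alone. This order between both HSC lists and HSC TAA alone depended on list length. When only the best 20000 peaks of every list entered, the 2 shares were 48.4% and 49.9%.

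Taken over all ranks, a peak in control ECs made little difference to this share where both HSC lists had one. Of 1421 regions in both HSC lists with an EC control peak, 928 had an EC TAA peak (65.3%, interval 62.8 to 67.7%), beside the 65.9% of regions without an EC control peak. The intervals overlapped. By rank of the HSC TAA peak, the pair differed in opposite directions. In the lowest 10 percentiles, the share was 42.4% without and 24.4% with an EC control peak. At percentiles 40 to 50 it was 81.0% and 88.9%, and in neither bin did the intervals overlap. With every list shortened to the length of the shortest, the share over all ranks was 57.5% without and 66.1% with an EC control peak. The closeness of the pair thus also depended on list length. For regions in HSC TAA alone the share was 38.2% without and 41.7% with an EC control peak (interval of the second value 39.1 to 44.3%). For regions in HSC control alone it was 17.7% without and 4.76% (3.96 to 5.72%) with an EC control peak. Of 16191 regions with an EC control peak in neither HSC nor HEP list, 317 had an EC TAA peak (1.96%, 1.76 to 2.18%). In these counts, among regions without a HEP peak, the EC TAA peak thus went with the HSC lists more closely than with the EC control list. This is a description, since the lists are those that define the members, and the classes were not matched for strength of their peaks. The peaks of the hepatocyte genes above, which were placed through HSC or HEP promoter peaks, were likewise shared by EC TAA and the HSC lists. They were weak or absent in EC control. They also ranked high in both HEP lists, whereas regions with a HEP peak are left out of this pattern. None of the 5 placed hepatocyte genes had a member. The part of hepatocyte-gene peaks in this pattern was not tested.

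**Figure D1:**
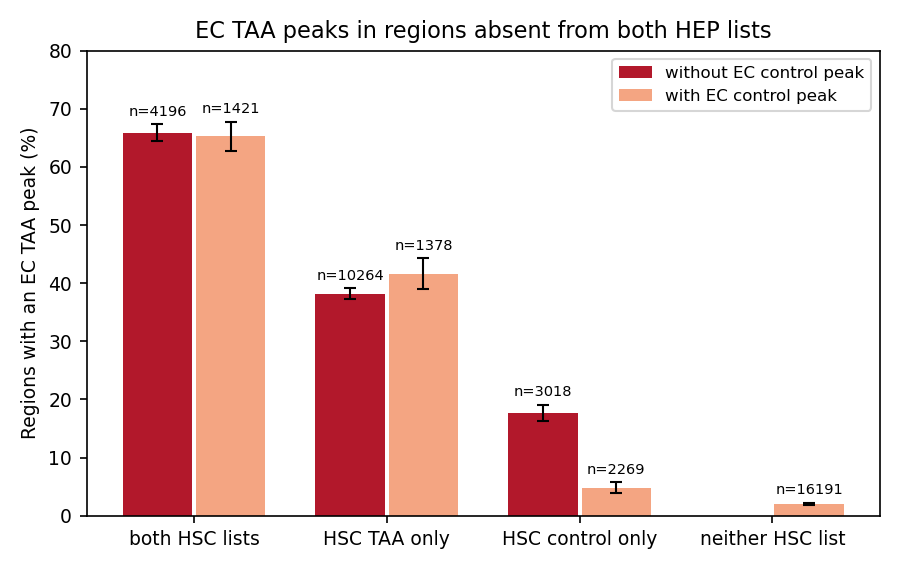
Share of regions with an EC TAA peak (y axis, %), for regions absent from both HEP lists, by the HSC lists that held a peak (x axis). Dark bars are regions without and light bars regions with an EC control peak, error bars are Wilson 95% intervals and n is the number of regions; the 2 bars of both HSC lists stand at 65.9% and 65.3%. Regions in neither HSC list and without an EC control peak have no bar, since regions are counted only where another list holds a peak.

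The share was higher where HEPs also had a peak. Of regions in both HSC lists and both HEP lists, 97.9% without and 94.6% with an EC control peak had an EC TAA peak. With HEP TAA alone the values were 84.7% without and 83.0% with an EC control peak, and with HEP control alone 87.9% without and 79.96% with one. The members therefore come from the class of regions in both HSC lists in which an EC TAA peak was least frequent.

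The members' peaks were of low to middling strength. Their median percentile was 25.3 in EC TAA (quartiles 14.6 and 36.7), 32.8 in HSC TAA (20.4 and 43.5) and 21.9 in HSC control (12.2 and 33.3). Median scores were 223 in EC TAA (range 66 to 1083), 261 in HSC TAA (63 to 1215) and 175 in HSC control (51 to 1689). Only 211 members (7.63%) stood in the better 50% of the EC TAA list, 374 (13.5%) in that of HSC TAA and 156 (5.64%) in that of HSC control, and 23 stood there in all 3. The best 10% of the lists held no member in EC TAA or HSC TAA and 1 in HSC control.

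Other sets showed where the members stood among stellate regions. The 928 regions in all 4 EC and HSC lists had medians of 25.6 in EC TAA, 29.6 in EC control, 34.5 in HSC TAA and 24.3 in HSC control, close to the members in each list that both sets have. The 1431 regions of the HSC lists alone had weaker HSC peaks, at medians of 21.6 in HSC TAA and 18.5 in HSC control. The 3918 regions of EC TAA and HSC TAA alone were also weaker, at 19.4 in EC TAA and 24.2 in HSC TAA. Regions with the members' peaks and peaks of both HEP lists were far stronger, at 66.1 in EC TAA, 67.8 in HSC TAA and 61.0 in HSC control. These sets were defined by presence of the same peaks, so their differences are a description.

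**Figure D2:**
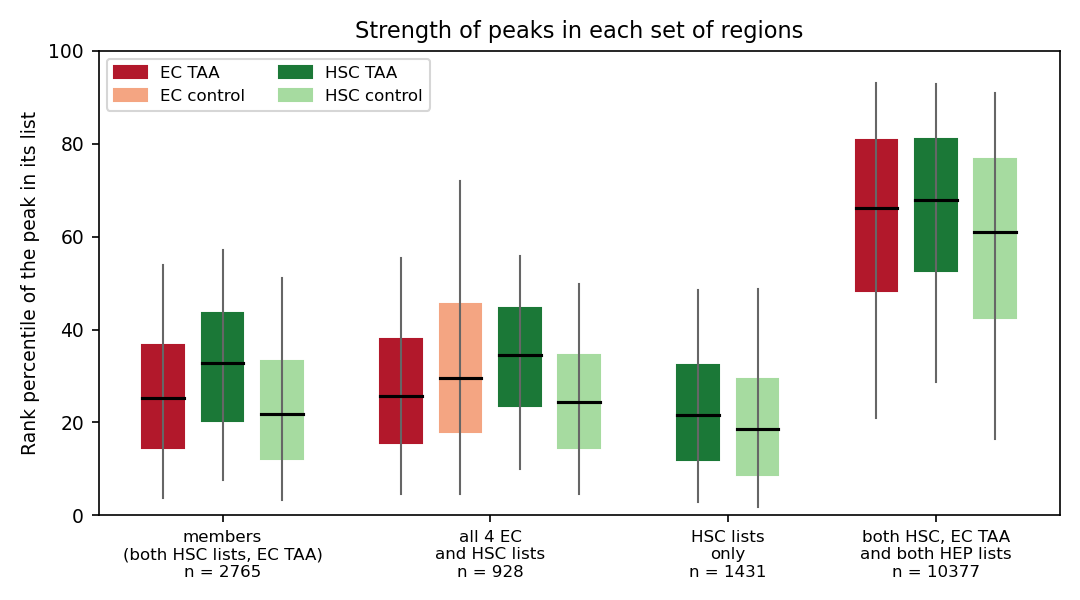
Rank percentile of peaks in their own list (y axis, 100 the strongest) for the members and 3 other sets of regions (x axis, n regions each). Boxes span the quartiles, the black line is the median and thin lines run from the 5th to the 95th percentile of the set; the members' medians of 25.3, 32.8 and 21.9 lie close to those of the regions in all 4 EC and HSC lists and far under those of regions also open in HEPs.

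The stronger the HSC TAA peak, the more often ECs of injured livers had a peak as well. Among regions with both HSC peaks, no HEP peak and no EC control peak, the share with an EC TAA peak was 42.4% in the lowest 10 percentiles of the HSC TAA list, 61.9% at percentiles 20 to 30, 81.0% at 40 to 50 and 87.0% at 50 to 60. It was 84.3% (86 of 102) from percentile 60 up. For regions with an EC control peak the same bins held 24.4%, 64.4%, 88.9% and 93.3%, and 92.0% (23 of 25) from percentile 60 up. The slope was thus also present where ECs were open without injury. Against the strength of the HSC control peak the shares spanned a narrower range, at 57.7% in the lowest 10 percentiles, 68.4% at 20 to 30 and 75.2% at 40 to 50 for regions without an EC control peak, and 70.3% at 50 to 60 and 71.2% from 60 up. For regions with an EC control peak they were 50.3%, 67.4%, 76.7%, 84.6% (33 of 39) and 76.5% (13 of 17) in the same bins. The shares thus did not go on climbing in the upper bins of the HSC control list without an EC control peak.

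**Figure D3:**
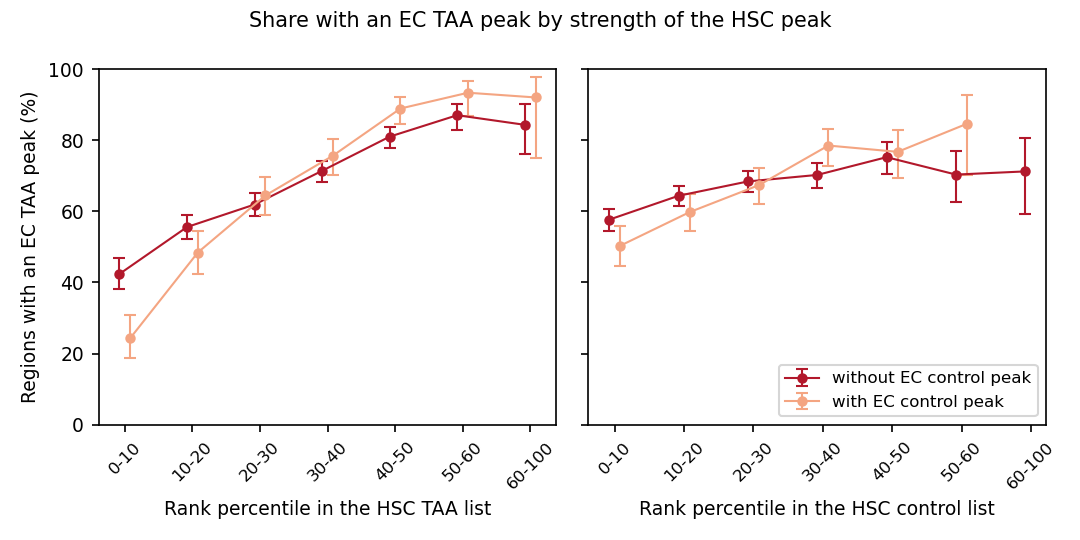
Share of regions with an EC TAA peak (y axis, %) by rank percentile of the HSC TAA peak (left) and of the HSC control peak (right), for regions in both HSC lists and no HEP list. Dark points are regions without and light points regions with an EC control peak, bars are Wilson 95% intervals, and a bin of under 20 regions is not drawn; the dark points run from 42.4% to 87.0% on the left and from 57.7% to 75.2% on the right.

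Within the members, EC TAA ranks followed HSC TAA ranks more closely than HSC control ranks. Across the 2765 regions Spearman's rho was 0.396 for EC TAA with HSC TAA, 0.206 for EC TAA with HSC control and 0.332 for HSC TAA with HSC control. Regions of one genome are not independent replicates and share width and base composition, so no p is given. In the 928 regions of all 4 lists rho was 0.448 for EC TAA with HSC TAA, 0.075 for EC TAA with EC control and 0.051 for EC control with HSC TAA. There the EC TAA ranks lay closer to those of HSC TAA than to those of EC control. With HSC control, rho in these 928 regions was 0.27 for EC TAA and 0.157 for EC control. In the 10377 regions with the members' peaks and both HEP peaks the order was that of the members, and rho was higher. It was 0.82 for EC TAA with HSC TAA, 0.70 for EC TAA with HSC control and 0.76 for HSC TAA with HSC control. The HSC TAA peak ranked above the HSC control peak in 1958 members (70.8%), beside 837 of the regions of the HSC lists alone (58.5%) and 667 of the regions in all 4 lists (71.9%). In the regions with the members' peaks and both HEP peaks it did so in 7251 (69.9%), much as in the members. The EC TAA peak ranked above the HSC TAA peak in 956 members (34.6%).

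Position of the summits, the base of highest signal in a peak, was not itself used to choose the members. The rule did join overlapping peaks, which limits how far apart the summits of such narrow regions can lie. The distances are therefore a description. The EC TAA summit lay a median of 9 bp from the HSC TAA summit (quartiles 3 and 22 bp) and within 20 bp of it in 2022 members (73.1%, interval 71.4 to 74.7%). It lay within 20 bp of the HSC control summit in 66.8%, at a median of 11 bp. HSC TAA and HSC control summits were within 20 bp of each other in 1906 members (68.9%, 67.2 to 70.6%), at a median of 10 bp. EC TAA and HSC TAA summits, from different cell types, thus lay about as close as the summits of HSCs with and without injury. In the regions of all 4 lists the EC TAA summit was within 20 bp of the HSC TAA summit in 77.9% and of the EC control summit in 64.5%. In regions with the members' peaks and both HEP peaks, it was within 20 bp of the HSC TAA summit in 73.7%, much as in the members. How far width or strength of the peaks moved these shares was not tested.

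**Figure D4:**
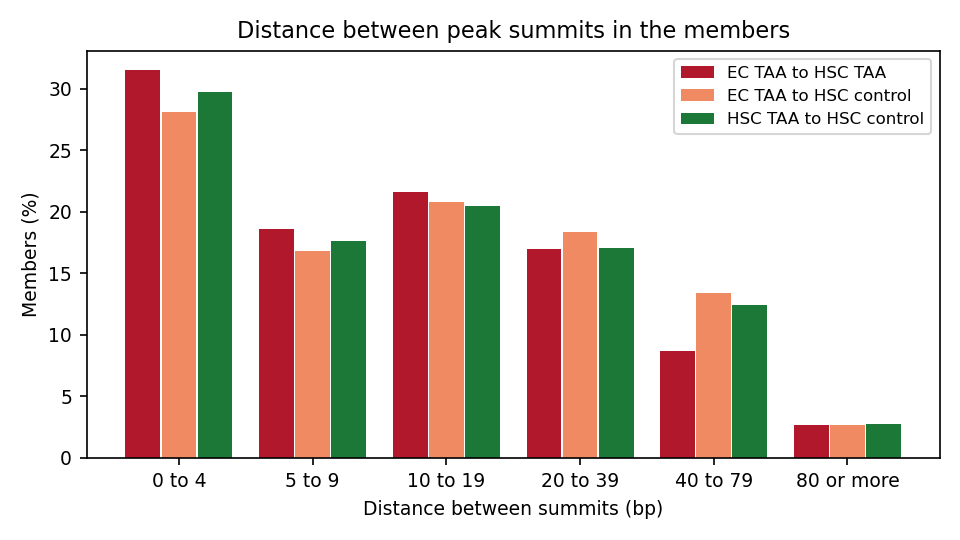
Distance between peak summits in the members (x axis, bp, in bins) and the share of members in each bin (y axis, %), for 3 pairs of lists. Distances of 0 to 4 bp are the most frequent bin for each pair, and the median distance is 9 bp from EC TAA to HSC TAA, 11 bp from EC TAA to HSC control and 10 bp from HSC TAA to HSC control.

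The members were narrow. Their widths ran over 101 to 545 bp with a median of 173 bp (quartiles 155 and 199 bp), and they covered 512 kb in all. Each of the 3 lists gave a single peak in 2755 members (99.6%), and all 3 peaks had bases in common in 2758 (99.7%), over a median of 110 bp. Regions of the HSC lists alone had a median width of 155 bp, those of all 4 EC and HSC lists 175 bp, and those with the members' peaks and both HEP peaks 245 bp. Width can grow with the number of lists joined, and the wider sets were also the stronger ones.

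The rule excluded any overlap with a peak of the lists that members lack, and most members lay over 500 bp from one. The nearest EC control peak was a median of 7.24 kb off (quartiles 2.33 and 18.8 kb), the nearest HEP TAA peak 6.43 kb and the nearest HEP control peak 7.07 kb. An EC control peak lay within 500 bp of 238 members (8.61%), a HEP TAA peak within 500 bp of 259 (9.37%) and a HEP control peak within 500 bp of 248 (8.97%). Dropping each member with any such peak within 500 bp left 2398. Within 3 kb, 849 members (30.7%) had an EC control peak. Other sets without an EC control peak gave similar distances to one. Its median was 9.15 kb for regions of the HSC lists alone, with 9.50% within 500 bp. For regions of EC TAA and HSC TAA alone the median was 6.155 kb, with 11.9% within 500 bp. Regions open in all 6 lists lay within 3 kb of 484 members (17.5%, interval 16.1 to 19.0%). The same share was 15.7% (13.9 to 17.6%) for regions of the HSC lists alone and 20.6% (18.1 to 23.3%) for those of all 4 EC and HSC lists.

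Members were found on all 25 chromosomes, 82 to 155 on each (median 108). They made up 2.40% of the regions of chromosome 15 and 4.12% of those of chromosome 22, the lowest and highest values, with a median of 3.002%. The share of stellate regions with an EC TAA peak ran over 52.2% on chromosome 1 to 76.1% on chromosome 25 without an EC control peak, and over 53.1% to 78.8% with one. The share without an EC control peak was the higher of the pair on 14 of the 25 chromosomes.

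Members were mostly single along the chromosome. The next region was another member in 117 of 2764 cases (4.23%, interval 3.54 to 5.05%), against 3.01% of all regions. Such an excess was not particular to the members. For regions of the HSC lists alone the next was of the same set in 3.78%, against 1.555% of all regions. In the set of all 4 EC and HSC lists it was 1.72% against 1.01%, and for EC TAA and HSC TAA alone 6.00% against 4.26%. Of 12490 windows of 100 kb that held a region, 2339 held a member, and of these 1967 held 1, 325 held 2, 41 held 3, 5 held 4 and 1 held 5. That last window, chr16:28900001-29000000, had 5 members among 12 regions. Their EC TAA scores were 120, 223, 344, 134 and 153, with HSC TAA scores of 279, 238, 261, 258 and 299 and HSC control scores of 119, 151, 160, 102 and 154 in the same order along the chromosome. All 5 were thus weak to middling peaks, and the first 3 lay within a stretch from chr16:28903260 to chr16:28907445. In the window chr8:46600001-46700000, members were 4 of 7 regions.

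Scores of the strongest members show what the upper end looked like. By the lowest of its 3 percentiles, the first was chr5:13724061-13724335, with scores of 917 in EC TAA, 978 in HSC TAA and 1060 in HSC control. The next was chr21:31230392-31230594, at 765 in EC TAA, 917 in HSC TAA and 603 in HSC control. Then came chr5:68238167-68238375, at 567, 698 and 753 in the same lists. In these 3 regions all lists gave peaks above the median score of their list. In chr8:12348676-12348872 the HSC TAA peak ranked highest of the 3, with scores of 773 in EC TAA, 1127 in HSC TAA and 433 in HSC control. In chr4:71420484-71420705 the EC TAA peak ranked highest of the 3, with scores of 818 in EC TAA, 589 in HSC TAA and 406 in HSC control. The other 5 of the first 10, with EC TAA scores of 489 to 634, were chr12:33358535-33358816, chr1:46850317-46850524, chr21:38527406-38527588, chr10:35938940-35939189 and chr3:50993713-50993885. The lists therefore ranked some of the strongest members apart and others nearly alike. The member chr8:12348676-12348872 stood at percentiles 68.7 in EC TAA, 78.0 in HSC TAA and 56.6 in HSC control. For chr21:38527406-38527588 they were 57.5, 58.1 and 54.7 in the same lists.

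The highest EC TAA score of a member, 1083, belonged to chr23:34178605-34178866, where HSC TAA gave 178 and HSC control 174. The widest member, chr2:17468895-17469439 of 545 bp, also ranked highest in EC TAA, at percentiles 73.7 in EC TAA, 39.2 in HSC TAA and 36.6 in HSC control, with scores of 913 in EC TAA, 316 in HSC TAA and 253 in HSC control. The second widest, chr11:25893802-25894296 of 495 bp, lay in KAZN, which encodes a desmosome-associated protein, and gave 158 in EC TAA, 418 in HSC TAA and 203 in HSC control. The next, chr16:43498403-43498894 of 492 bp, gave 260 in EC TAA, 150 in HSC TAA and 193 in HSC control. These regions show that presence in the required lists covers quite different balances between ECs and HSCs.

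Regions on either side of the limits of the lists had weak peaks there. The lowest EC TAA score of a member was 66, in chr11:37118089-37118247, chr2:57165473-57165706 and chr5:40036906-40037093. Of the regions that failed only through an EC control peak, the lowest EC control scores were 55 in chr11:11798564-11798801, 59 in chr7:13410878-13411130 and 60 in chr18:40892876-40893126, where EC TAA gave 111, 254 and 121.

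Gene names could be given only for chromosomes 1 and 10 and most of 11, and only for genes that have a promoter peak in the HSC or HEP annotation of the study. The annotation at hand stops short of the end of chromosome 11, so members beyond that point carry no name. Of the 313 members on these whole chromosomes, 169 lay in such a gene or within 3 kb of its start, for 164 genes. The same share over all regions of these chromosomes was not computed, so this count does not set the members apart. Lying in a gene says nothing about control of that gene, and whether a place was exonic or intronic was not determined. AUTS2, which encodes a regulator of transcription and of the cytoskeleton in neurons, held 6 members spread over 348 kb of chromosome 10, of 24 regions in that span. The span was set by the first and last member, and 8 of its 24 regions had an EC control peak. Over all of chromosome 10, members were 3.39% of regions. The 6 members had EC TAA scores of 164, 266, 82, 144, 286 and 194. Their HSC TAA scores were 200, 278, 136, 258, 323 and 145, and their HSC control scores 133, 182, 260, 186, 738 and 363. In 3 of the 6 the HSC control peak ranked highest of the 3 lists, and the EC TAA score was never above 286. DLG2, a scaffold protein gene, held 3 members. The EC TAA scores were 250, 214 and 210, against 350, 249 and 526 in HSC TAA and 206, 207 and 256 in HSC control. AUTS2 and DLG2 are long genes, so a count of members in them is not a density.

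Genes with 2 members each included ARHGAP10, CWC27, GAB1, GRK3, PAX7, PHACTR3, SIPA1L2, TMEM259, tfpil and unm_sa1614. GAB1 encodes an adaptor that links growth factor receptors to the PI3K and MAPK pathways. Its members scored 189 and 148 in EC TAA, against 492 and 530 in HSC TAA and 330 and 426 in HSC control. tfpil takes its name from tissue factor pathway inhibitor, a brake on coagulation. Its members scored 291 and 123 in EC TAA, 279 and 401 in HSC TAA and 117 and 223 in HSC control. In both genes the EC TAA peak ranked under the HSC TAA peak in all but 1 of the members.

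Genes of known function are described next as examples, chosen after their values were seen and for what is known of them. Among genes of signalling, SMAD1, a transcription factor of the BMP pathway, held a member in the gene with scores of 304 in EC TAA, 294 in HSC TAA and 179 in HSC control. PIK3CA, the catalytic subunit of PI3K, gave 321 in EC TAA, 380 in HSC TAA and 271 in HSC control. IL17RD, which restrains FGF signalling, gave 292 in EC TAA, 389 in HSC TAA and 96 in HSC control. The member at the start of HHIP, an inhibitor of hedgehog signalling, gave 157 in EC TAA, 188 in HSC TAA and 163 in HSC control. Within 3 kb of the start of NRARP, a feedback regulator of Notch signalling, a member gave 381 in EC TAA, 290 in HSC TAA and 221 in HSC control. Of these 5, SMAD1 and NRARP had an EC TAA peak that ranked above the HSC TAA peak, SMAD1 by a narrow margin.

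Examples from adhesion, the cytoskeleton and the Hippo pathway follow. TLN1, talin, which couples integrins to actin, had 384 in EC TAA, 1015 in HSC TAA and 154 in HSC control. FAT1, an atypical cadherin, had 209 in EC TAA, 308 in HSC TAA and 124 in HSC control. A member within 3 kb of the start of CDC42, a small GTPase, also within 3 kb of that of ap5b1, had 242 in EC TAA, 527 in HSC TAA and 402 in HSC control. VGLL4, a cofactor that competes with YAP for TEAD factors, gave 226 in EC TAA, 350 in HSC TAA and 109 in HSC control. The HSC TAA peak ranked highest in these 4, but not in all genes of this kind. ARHGAP10, a gene of GTPase regulation, held a member that gave 425 in EC TAA, 111 in HSC TAA and 137 in HSC control. Its other member, within 3 kb of its start and of that of PRMT9, went the other way. That member gave 281 in EC TAA, 341 in HSC TAA and 310 in HSC control, and ranked lowest in EC TAA.

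Examples from transcription and metabolism follow. Near the start of NCOA3, a coactivator of nuclear receptors, a member gave 538 in EC TAA, 341 in HSC TAA and 132 in HSC control. Near that of TFEB, a regulator of lysosomal genes, a member gave 257 in EC TAA, 485 in HSC TAA and 316 in HSC control. The member in AGPAT3, an acyltransferase of phospholipid synthesis and the only one of the first 10 above that has a gene name, gave 511 in EC TAA, 1102 in HSC TAA and 419 in HSC control. SARDH, the mitochondrial sarcosine dehydrogenase, gave 457 in EC TAA, 708 in HSC TAA and 515 in HSC control. Members near MIR21, MIR17 and mir16b, which are genes of microRNAs, had EC TAA scores of 138, 140 and 219, against 202, 282 and 271 in HSC TAA and 175, 121 and 122 in HSC control. These scores stood at or under the members' medians in EC TAA and HSC control, and between their quartiles in HSC TAA.

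**Figure D5:**
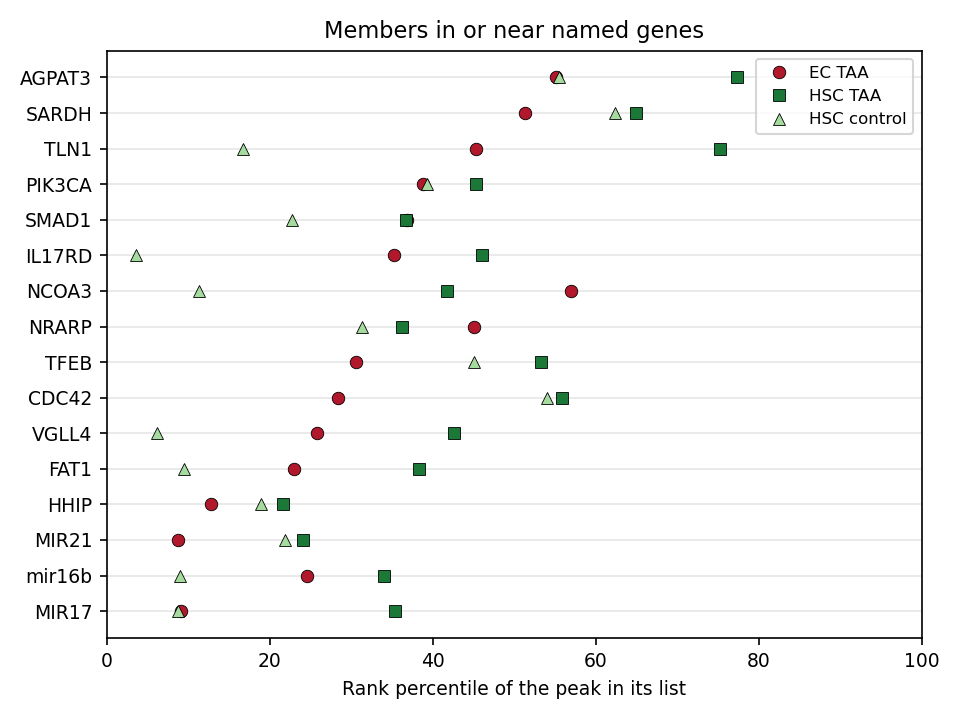
Rank percentile of the peaks of 16 members (x axis, 100 the strongest in its list) that lie in or near named genes (y axis), for EC TAA (circles), HSC TAA (squares) and HSC control (triangles). The members shown were chosen after their values were seen and do not stand for the rest; the 3 peaks of a region could lie far apart, as in TLN1 at percentiles 45.3 in EC TAA, 75.3 in HSC TAA and 16.7 in HSC control.

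The lists of genes on stellate identity, matrix, endothelium, hepatocytes, bile duct, immune cells, TGF-beta and PDGF signalling, and Hippo and AP-1 could hardly be examined. Genes were placed by the symbols of the lists within the partial annotation described above. A gene on another chromosome, without an HSC or HEP promoter peak, or annotated under another symbol counts as not placed. Through its symbol, VGLL4, described above, was not matched to vgll4a and vgll4b of the Hippo and AP-1 list. Within these limits, none of 38 stellate, 52 endothelial or 27 Hippo and AP-1 genes could be placed. Of 57 matrix genes 3 could be placed, col6a1, col6a2 and loxl2a, which encode collagen VI chains and a lysyl oxidase, and no member lay within 3 kb of them. Of 41 hepatocyte genes 5 could be placed, and of 8 biliary, 19 immune and 37 TGF-beta and PDGF genes 1 each, all without a member.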

How the data were processed

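ATAC-seq peak lists of 6 groups were used, each made by the authors from 3 libraries together. Per the study's methods and the submitters' processing notes, reads were aligned to GRCz11 with Bowtie2 2.3.4.3, fragments up to 128 bp were kept and shifted for the transposase, peaks were built with MACS2 2.1.0.2 from replicate p-values combined by Fisher's method at a q-value cutoff of 1e-05, and low-complexity peaks were removed with bedtools 2.27.1. The deposited score is a rounded 10 × −log10 of q. Signal and p columns of the deposited files hold only 0 and were not used, and depth is unknown. The other column used, the summit, is an offset from the peak start that the authors deposited.

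Peaks sharing 1 bp were joined (Python 3.11.15, pandas 2.3.3), scored by list pattern, and ranked within lists. A region's value is that of its best peak. The joining was tested on simulated peaks. Members and gene lists were chosen with earlier results of these data known. Regions were named by a rule on rank, width and score. Genes were named from the study's own annotation of HSC and HEP promoter peaks, held only in part, with symbols matched by Ensembl ID for 1464 of 1507 genes. The planned gene rule by nearest start was not applied. A member was given every such gene that it lay in or within 3 kb of the start of, so a member could carry several names. Some members near named genes are not reported here. No GRCz11 sequence was used here, so sequences, base composition, motifs and promoter shares are not given. The study's methods give fewer control fish than there were control libraries over the cell types, and not which fish went into which library, so libraries may share fish and their independence is unknown.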

Additional observations from a re-analysis of the deposited data

How the results depend on the processing

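Against 2765 members, 2398 were left with no excluded peak within 500 bp and 2186 within 1000 bp, and joining peaks up to 100 or 500 bp apart gave 2692 and 2404. List length and required strength moved the count most. Lists shortened to the length of the shortest gave 674 members, of which 551 overlapped the reported ones. The best 20000 peaks of each list gave 229, of which 2 overlapped, and the better 50% of each list gave 1302, of which 23 overlapped. Asking for the better 50% of the 3 required lists alone left 23. The share of stellate regions with an EC TAA peak, without an EC control peak, was 57.5% at equal length, 48.4% for the best 20000 peaks and 57.5% for the better 50%. With an EC control peak it was 66.1%, 44.8% and 61.25%. For HSC TAA alone the share without an EC control peak was 46.5%, 49.9% and 39.9%, and for HSC control alone 19.9%, 17.7% and 20.5%. The median summit distance of 9 bp was the same with 1 peak per list. Of 20 alternative values, 11 stayed within 1.5 times the reported count or within the 95% interval of the reported share or median, and 9 did not. Of the 11, the 3 from the numbered chromosomes alone were identical to those reported. The members are thus a set of peaks near the lower end of the lists, and which regions they are depends on list length. Promoter share, base composition and motif alternatives were not run. No paired analysis was possible because each list pools the 3 libraries of its group, so no library can be left out either.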
